A study of Mus musculus with 6 samples.

Results

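Megakaryocyte progenitors of mice given CTC41.5G-EVs were compared with those of mice given CTC41-EVs, through the deposited log2 signals of 1 Clariom D Mouse array a side. These were 2 of the 6 arrays of the series, picked by their titles. The remaining 4 were the PBS progenitor array and the platelet arrays of mice given CTC41.5G-EVs, CTC41-EVs and PBS. EVs is taken here as extracellular vesicles. The labels do not spell out what CTC41 and CTC41.5G stand for, and give no strain, age, sex, dose, route or time. RNA was pooled over the mice of a group and came from bone marrow for the progenitors and from citrated cardiac blood for the platelets. Pools were used directly or after magnetic beads had removed leukocytes and erythrocytes, and the labels do not say which pool was treated which way. With 1 array a group there was no replicate, so no value below has an error across animals, no test was possible, and every difference is one between these arrays. Differences in bead treatment, animals and hybridisation cannot be told apart from the vesicle given.

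Megakaryocyte progenitors are marrow cells committed to making megakaryocytes, the large cells that shed platelets into the blood. They are driven by thrombopoietin through its receptor and by transcription factors such as GATA1, FLI1 and RUNX1, and they pass part of their RNA on to platelets. Extracellular vesicles are membrane particles that cells release and that can carry protein and RNA to other cells. The comparison asks how the marrow cells differed between mice given one vesicle preparation and mice given the other.

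Of 10858 named genes above a floor of 5.07 on the log2 scale, 66 were at least 1.5-fold higher with CTC41.5G-EVs than with CTC41-EVs (0.608%) and 85 were at least 1.5-fold lower (0.783%). The floor is the 75th percentile of all probe means, applied to the mean of the 3 progenitor arrays, and 1.5-fold is the threshold in the series text. The 2 arrays were alike. Their signals over all probes had a Pearson correlation of 0.978, the widest gaps were 2.26-fold upward, for a gene below the floor on the CTC41-EVs array, and 2.34-fold downward, and the quartiles of the log2 differences were -0.04 and 0.18. The median gene was 0.08 higher with CTC41.5G-EVs, with an SD over genes of 0.21, and 68.5% of genes were higher by sign alone against 31.5% lower. A gene list with about 68.5% of its members higher therefore did what all genes did. The array medians were 4.45 for CTC41.5G-EVs, 4.38 for CTC41-EVs and 4.38 for PBS. The balance of directions depended on scaling between arrays. As deposited, 43.7% of the 151 genes past 1.5-fold were higher with CTC41.5G-EVs, against 23.1% after quantile normalization, 19.4% with the arrays set to the same median, 19.6% with them centred on olfactory receptor genes and 16.0% after a loess curve was subtracted. Together the 151 genes were 1.39% of those above the floor. Both arrays were at or above the floor for 45 of the 66 higher and 62 of the 85 lower genes.

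**Figure D1:**
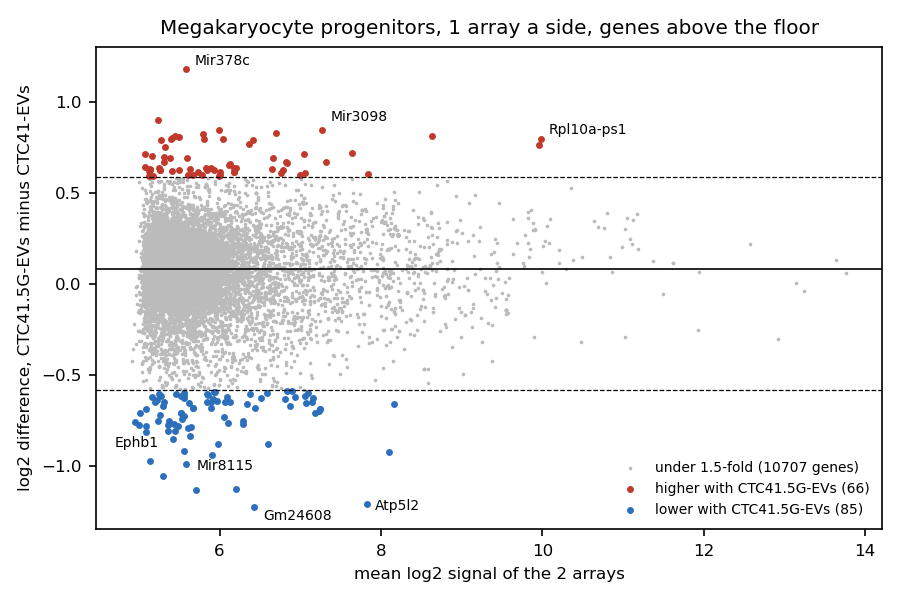
Log2 difference, CTC41.5G-EVs minus CTC41-EVs, against the mean log2 signal of the same 2 progenitor arrays for 10858 genes, each point 1 gene. The solid line is the median of all genes at 0.08 and the dashed lines mark 1.5-fold, which 66 genes passed upward (red) and 85 downward (blue).

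Against the PBS progenitor array, 594 genes were at least 1.5-fold higher with CTC41.5G-EVs (5.47%) and 81 were lower (0.746%). With CTC41-EVs, 336 were higher than on the PBS array (3.09%) and 11 were lower (0.101%). The 3 contrasts share arrays, so they are not separate evidence, and the PBS values are given below beside the others.

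The pools carried megakaryocyte genes together with those of other lineages, each at much the same level on both arrays. Of 43 lineage markers on the array, 30 were above the floor and 1 was past 1.5-fold, S100a8, and the median over the 43 was 0.03. All 4 megakaryocyte markers on the array were above the floor. Pf4, the platelet chemokine, read 6.50 with CTC41.5G-EVs, 6.57 with CTC41-EVs and 6.24 with PBS. Itga2b, the alpha chain of the fibrinogen receptor, read 6.58, 6.45 and 6.50 in that order. Neutrophil precursor markers were also present: Mpo, myeloperoxidase, read 8.41 with CTC41.5G-EVs, 8.22 with CTC41-EVs and 7.75 with PBS. So were those of late neutrophils, with Ngp, a granule protein, at 8.69, 8.93 and 8.65, and those of basophils, with Prss34, a basophil protease, at 7.90, 8.16 and 7.62. The log2 of the summed signal of the 4 megakaryocyte markers was 8.24 with CTC41.5G-EVs, 8.20 with CTC41-EVs and 8.17 with PBS. For the 4 neutrophil precursor markers these sums were 9.32, 9.29 and 8.85, for the 5 late neutrophil markers 10.29, 10.33 and 10.23, and for the 5 basophil, mast cell and eosinophil markers 8.89, 9.08 and 8.61. The erythroid sum was 7.37 with CTC41.5G-EVs and 7.34 with CTC41-EVs, and its defining factor Klf1 was below the floor on both. The endothelial sum differed most, 6.42 with CTC41.5G-EVs against 6.18 with CTC41-EVs. Its markers Cdh5 and Emcn were below the floor on both arrays, and Pecam1, at 5.21 and 5.01, was below it with CTC41-EVs. The size of that gap therefore rests on values below the floor. In a pool of cells, more cells of a type and more RNA per cell cannot be told apart, and the part of other lineages in the differences below was not tested.

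Among 7094 protein-coding genes above the floor 20 were past 1.5-fold higher with CTC41.5G-EVs and 20 lower. That is 0.282% each way, below the 0.608% and 0.783% of all genes. None of the 15 furthest apart each way is in the megakaryocyte or platelet lists used below, and many read below 6. On 1 of the vesicle arrays a value lay below the floor for Slc35e4, 3110040M04Rik, H2ac15, Fam122a, Nhlrc1, Foxo6, Olfr281, Fbxo46, Ephb1, Olfr150, Ywhah, Olfr1480, Cldn17, 4930555G01Rik, Mettl7a3 and Zfp987, so the size and rank of their gaps rest on it. Cited2, a transcriptional coregulator needed to maintain blood stem cells, read 6.96 with CTC41.5G-EVs, 6.33 with CTC41-EVs and 6.08 with PBS, a log2 difference of 0.63 between the vesicle arrays. Rps15, a protein of the small ribosomal subunit, read 7.005, 6.31 and 6.13, a difference of 0.69. In both genes CTC41.5G-EVs stood above the other arrays, which lay close together. H2ac15, a histone H2A gene, read 5.67 with CTC41.5G-EVs, 4.88 with CTC41-EVs and 5.10 with PBS. Slc35e4, of a family of nucleotide sugar transporters, read 5.69 with CTC41.5G-EVs, 4.79 with CTC41-EVs and 4.87 with PBS, the last pair below the floor. Avp, which encodes the hormone vasopressin, read 6.21, 5.39 and 5.84. Fam122a, which encodes an inhibitor of a protein phosphatase, differed by 0.70, Nhlrc1, a ubiquitin ligase of glycogen metabolism, by 0.69, and the forkhead factor Foxo6 by 0.67. Fthl17d, a ferritin-like gene, read 7.16 with CTC41.5G-EVs, 6.49 with CTC41-EVs and 6.85 with PBS. Tssk3, a kinase gene known from testis, differed by 0.63, as did Fbxo46, an F-box gene. The olfactory receptor genes Olfr981 and Olfr281 differed by 0.69 and 0.63, and 3110040M04Rik and 2410141K09Rik, which have no role given here, by 0.80 and 0.67.

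Ephb1, a receptor tyrosine kinase for ephrin-B ligands, had a difference of -0.85 with its CTC41.5G-EVs value below the floor. It read 5.00 with CTC41.5G-EVs, 5.85 with CTC41-EVs and 5.62 with PBS, and its difference was -0.43 when its probes were averaged. Ccl5, a chemokine made by T cells, NK cells and platelets, read 5.65 with CTC41.5G-EVs, 6.29 with CTC41-EVs and 6.22 with PBS. Ywhah, a 14-3-3 adaptor protein, read 4.90, 5.63 and 5.65. For both genes the CTC41.5G-EVs array was low while the other arrays were close to each other. Rtn4ip1, a mitochondrial oxidoreductase, read 5.17 with CTC41.5G-EVs, 5.91 with CTC41-EVs and 5.69 with PBS. Cldn17, a tight junction claudin, differed by -0.69, Mettl7a3, a methyltransferase-like gene, by -0.65, and Zfp987, a zinc finger gene, by -0.64. The rest of these 15 were sensory or poorly described genes. Vmn1r157, a vomeronasal receptor, differed by -0.79, and Mrgpra2b, a Mas-related receptor, by -0.79. The olfactory receptors Olfr1168, Olfr150, Olfr1480 and Olfr239 differed by -0.77, -0.76, -0.71 and -0.65. 4930555G01Rik and Gm14870 differed by -0.65 and -0.63.

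**Figure D2:**
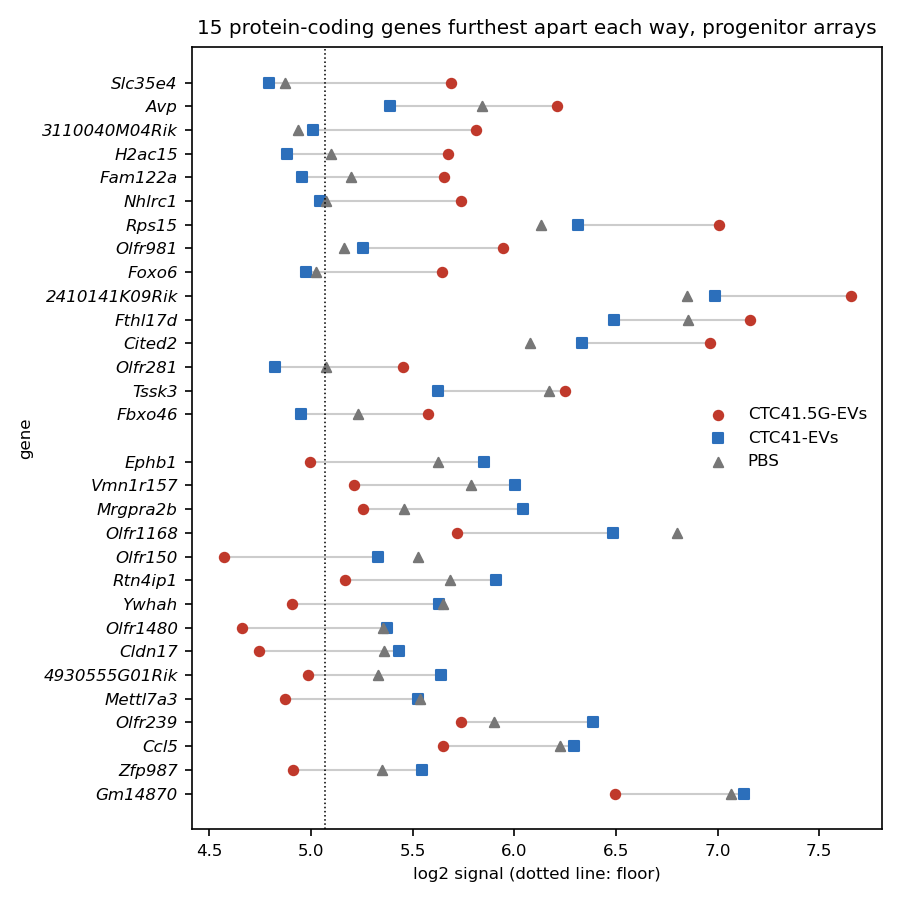
Log2 signal of the 15 protein-coding genes furthest apart each way, with CTC41.5G-EVs (circles), CTC41-EVs (squares) and PBS (triangles) in progenitors, 1 array each. The dotted line is the floor at 5.07, and the grey lines join the vesicle arrays, at 6.96 with CTC41.5G-EVs and 6.33 with CTC41-EVs for Cited2.

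No gene list used for these cells had a median 1.5-fold apart. Over the alternatives the medians of the erythroid, azurophil, basophil, T and NK cell, immediate early, microRNA, olfactory, vesicle formation, inflammatory and platelet cytoskeleton lists took both signs. Relative to the median of all genes, so did those of the heat shock, platelet receptor, alpha-granule, late neutrophil, interferon and antioxidant lists. Cytosolic ribosomal proteins, the building blocks of the ribosome, had 27 of 31 members higher with CTC41.5G-EVs, 1 of them past 1.5-fold and none lower by that much, with a median of 0.16 against 0.08 over all genes. Rpl35, of the large subunit, read 7.68 with CTC41.5G-EVs, 7.14 with CTC41-EVs and 6.23 with PBS. Rpl10a, also of the large subunit, read 7.21, 6.70 and 6.53, and Rps29, of the small subunit, 7.73, 7.23 and 6.92. Each of these genes, like Rps15, was highest with CTC41.5G-EVs and lowest with PBS. The 4 members that were lower were Rps9, Rpl22, Rps19 and Rpl37a, by 0.06 or less. The list median against PBS was 0.71 for CTC41.5G-EVs and 0.38 for CTC41-EVs, against 0.13 and 0.04 over all genes. Its median between the vesicle arrays ranged from 0.08 to 0.19 over the alternatives and stayed above the median of all genes in each, by 0.06 to 0.12. In platelets, on separate arrays, the median difference of the same 31 genes was 0.27, against 0.04 over the genes above the floor in both cell types. This was not particular to them. Platelet receptors, platelet cytoskeleton genes and alpha-granule cargo had medians of 0.54, 0.30 and 0.28 there, while stem and progenitor genes had -0.03.

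**Figure D3:**
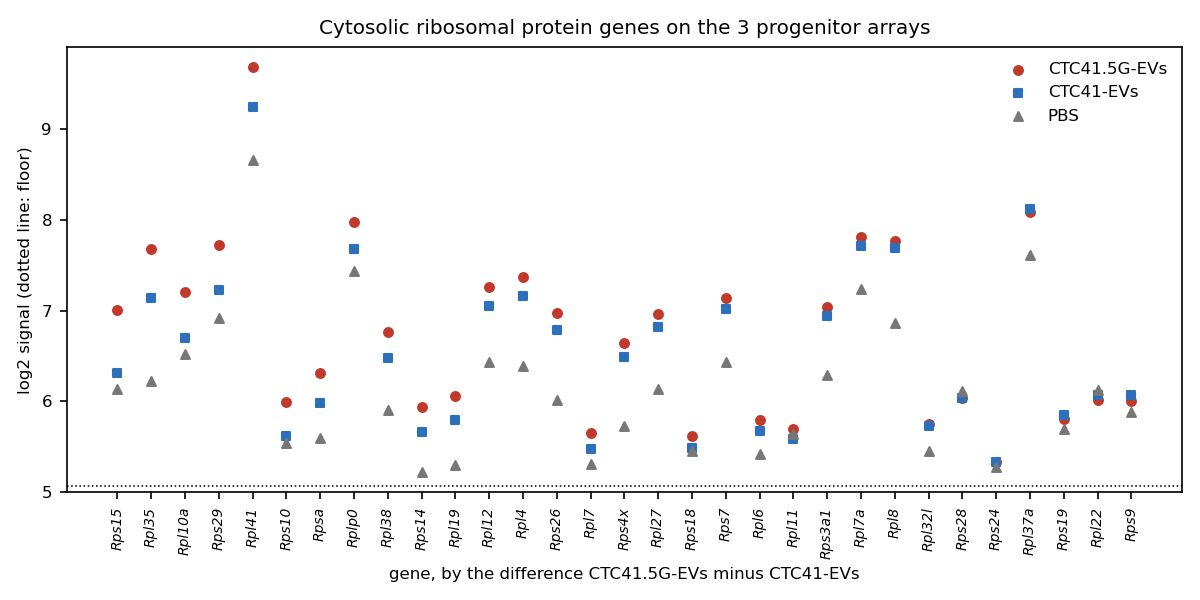
Log2 signal of 31 cytosolic ribosomal protein genes with CTC41.5G-EVs (circles), CTC41-EVs (squares) and PBS (triangles) in progenitors, 1 array each, ordered by the difference between the vesicle arrays. Circles lie above squares for 27 of 31 genes, most widely for Rps15 at 7.005 against 6.31.

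The promoters of the 3 members furthest apart are printed because most members of the list lay to the same side. They are from RefSeq (GRCm38.p6), 250 bases before to 50 after a start. Rps15 lies at chr10:80292181-80292480 on the + strand, Rpl35 at chr2:39005082-39005381 on the - strand, and a start of Rpl10a at chr17:28328315-28328614 on the + strand. The table holds another start of Rpl10a, at chr17:28328221-28328520, without the letters marked here. Capitals mark CTTTCC or CTTTTCC, letters chosen after these sequences had been read. They begin 30 bases after the start in Rps15 and 22 after it in this start of Rpl10a, and 4 before it in Rpl35.
Rps15: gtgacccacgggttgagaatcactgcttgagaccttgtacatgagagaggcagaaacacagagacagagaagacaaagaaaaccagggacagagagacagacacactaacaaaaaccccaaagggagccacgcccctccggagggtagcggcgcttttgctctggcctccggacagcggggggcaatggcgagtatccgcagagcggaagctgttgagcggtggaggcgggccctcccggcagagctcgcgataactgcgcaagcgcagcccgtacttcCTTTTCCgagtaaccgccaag
Rpl35: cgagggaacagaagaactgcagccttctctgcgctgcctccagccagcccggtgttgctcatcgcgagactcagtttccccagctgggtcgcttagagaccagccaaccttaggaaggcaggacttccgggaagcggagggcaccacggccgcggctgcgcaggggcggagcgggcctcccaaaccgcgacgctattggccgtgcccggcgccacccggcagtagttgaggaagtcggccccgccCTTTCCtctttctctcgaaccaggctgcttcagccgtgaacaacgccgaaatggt
Rpl10a: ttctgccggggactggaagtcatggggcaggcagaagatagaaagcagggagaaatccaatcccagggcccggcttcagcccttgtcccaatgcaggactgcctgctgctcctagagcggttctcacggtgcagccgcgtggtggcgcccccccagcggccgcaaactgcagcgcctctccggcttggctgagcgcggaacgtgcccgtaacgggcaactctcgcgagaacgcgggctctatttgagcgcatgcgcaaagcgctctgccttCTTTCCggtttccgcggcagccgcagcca
Those letters were searched from 20 bases before to 50 after the start, where they stood on the sense strand in 10 of the 27 ribosomal protein genes with a promoter in the table (37.0%). The 10 include the 3 genes the letters were read from, and without those the share was 7 of 24 (29.2%). They stood there in 4.69% of the 27025 genes of the table. On either strand the shares were 40.7% of the 27, 33.3% of the 24 without those 3 genes, and 9.34% of the table. A match is a description of letters only.

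Ribosomal protein pseudogenes, whose probes can share sequence with the parent genes, went both ways, with 4 of 161 past 1.5-fold higher (2.48%, against 0.608% of all genes) and 3 lower (1.86%, against 0.783%) and a median of 0.06. Rpl10a-ps1 read 10.38 with CTC41.5G-EVs, 9.58 with CTC41-EVs and 9.16 with PBS. Rpsa-ps2 read 7.11, 6.28 and 5.73, and Rps18-ps1 and Rpl31-ps9 differed by 0.71 and 0.63. Rpl35a-ps5, Rpl35a-ps2 and Rps12-ps7 were lower, by -0.84, -0.68 and -0.59. Whether these probes separate the signal of a parent gene from that of its copy was not tested. The pseudogene Sms-ps read 6.41 with CTC41.5G-EVs, 5.57 with CTC41-EVs and 5.59 with PBS. Lower were the pseudogenes Gm2951, by -1.13, and Gm13229, by -1.13. Atp5l2, named on the array for a copy of an ATP synthase subunit and not matched in the RefSeq table, read 7.22 with CTC41.5G-EVs, 8.43 with CTC41-EVs and 8.44 with PBS.

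Genes of the megakaryocyte programme differed little between the vesicle arrays, but several read close to the floor. Gata1 read 5.29 with CTC41.5G-EVs and 5.24 with CTC41-EVs, Vwf 5.43 and 5.34, and Tal1 5.45 and 5.28. Further above it were Itga2b, at 6.58 and 6.45, and Gata2, at 6.33 and 6.20. Small gaps near the floor, in pools that also carried neutrophil and basophil genes, cannot show that the programme was unchanged. Of 10 transcription factors of the lineage 8 were higher and 2 lower, with a median of 0.15 and none past 1.5-fold. Lyl1, a partner of stem cell factors, read 5.89 with CTC41.5G-EVs, 5.57 with CTC41-EVs and 5.67 with PBS. Etv6, an ETS repressor, read 6.32, 6.05 and 5.49, while Fli1, an ETS activator, read 5.38, 5.59 and 5.30. Zfpm1, the cofactor of GATA1, differed by 0.20. Platelet receptors had 8 of 10 members higher and a median of 0.11. Itgb3, the beta chain of the fibrinogen receptor, and Cd9, a tetraspanin, each differed by 0.28, the thromboxane receptor Tbxa2r by 0.18, and Gp6, the collagen receptor, by -0.18. In platelets the median of these 10 receptors was 0.54 between the same treatments, with Itgb3 at 10.15 with CTC41.5G-EVs, 9.40 with CTC41-EVs and 9.75 with PBS. Alpha-granule cargo had 8 of 12 members higher and a median of 0.09. Its widest member was Ppbp, a platelet chemokine precursor, at 5.87 with CTC41.5G-EVs, 5.36 with CTC41-EVs and 5.25 with PBS. Clu and Tgfb1, which encode clusterin and a cytokine stored in platelets, differed by 0.38 and 0.35, and Sparc, a matrix protein, by -0.23. Platelet cytoskeleton and signalling genes had 12 of 17 higher and a median of 0.05, and the thrombopoietin and JAK-STAT list 14 of 16 higher and a median of 0.11. Widest in that list were Cbl, an adaptor that limits receptor signalling, at 0.33, the feedback inhibitor Cish at 0.29, Csf3r at 0.27 and Grb2 at 0.20.

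Stem and progenitor genes had 6 of 7 members higher and a median of 0.21, which ranged from 0.14 to 0.21 over the alternatives. Cebpa, the transcription factor of the granulocyte and monocyte path, stood just under 1.5-fold at 0.58, with 6.15 for CTC41.5G-EVs, 5.57 for CTC41-EVs and 5.56 for PBS. Eng and Adgrg1, surface proteins of blood stem cells, each differed by 0.26, and Cd34 by 0.21. In platelets the median of the same 7 genes was -0.03. Heat shock genes were higher in 4 of 4 members, with a median of 0.26 that lay below the median of all genes in at least 1 alternative. Hspa8, a constitutive chaperone, read 10.81 with CTC41.5G-EVs, 10.47 with CTC41-EVs and 10.20 with PBS. Genes of haem synthesis and iron handling had 8 of 10 higher and a median of 0.19, led by Glrx5, an iron-sulphur cluster protein, at 7.78, 7.35 and 7.14. Erythroid genes had 6 of 11 higher and a median of 0.00.

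Neutrophil and basophil genes gave no single direction. S100a8, an alarmin of neutrophils, read 7.30 with CTC41.5G-EVs, 6.70 with CTC41-EVs and 7.08 with PBS, while S100a9, its partner in one complex, read 7.47, 7.65 and 7.24. The partners thus differed in opposite directions. Late neutrophil genes as a list had 10 of 13 higher and a median of 0.08, that of all genes. Azurophil granule genes split 5 and 5 with a median of 0.00. Ms4a3, a marker of granulocyte and monocyte progenitors, differed by -0.39, Ctsg and Elane, granule proteases, by -0.24 and -0.19, and the factor Gfi1 by 0.25. Mcpt8, a basophil protease, read 6.46 with CTC41.5G-EVs, 6.86 with CTC41-EVs and 6.42 with PBS. T and NK cell genes had 5 of 8 higher and 1 lower past 1.5-fold, Ccl5, while Cd3e of the T cell receptor complex differed by 0.45. The CTC41-EVs value of Cd3e, 5.01, was below the floor.

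Genes of energy, stress and signalling had no member past 1.5-fold. Nuclear genes of oxidative phosphorylation had 18 of 27 higher and a median of 0.11. Uqcrq, of complex III, read 6.63 with CTC41.5G-EVs, 6.07 with CTC41-EVs and 5.82 with PBS, while Cox6c, of complex IV, read 5.24, 5.68 and 5.87. Antioxidant genes had 8 of 12 higher and a median of 0.10, with Gpx1, glutathione peroxidase, at 7.40, 6.86 and 6.40. The death and survival list had 10 of 12 higher and a median of 0.13, led by the death receptor Fas at 8.72 with CTC41.5G-EVs, 8.22 with CTC41-EVs and 7.70 with PBS. Immediate early genes, which respond fast to stimulation and to cell handling, had 14 of 19 higher and a median of 0.07. Dusp1, a phosphatase of this group, read 8.28, 7.82 and 7.07, and Fosb 8.25, 7.87 and 7.22. Interferon response genes had 6 of 7 higher and a median of 0.12, led by Oas1a at 0.24. Inflammatory cytokines and NF-kB targets had 11 of 13 higher and a median of 0.11, led by Nfkbiz at 0.45. The CTC41-EVs values of Oas1a and Nfkbiz, 5.03 and 4.96, were below the floor. Tetraspanins and vesicle formation genes, which include markers of vesicles, had 11 of 17 higher and a median of 0.01.

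**Figure D4:**
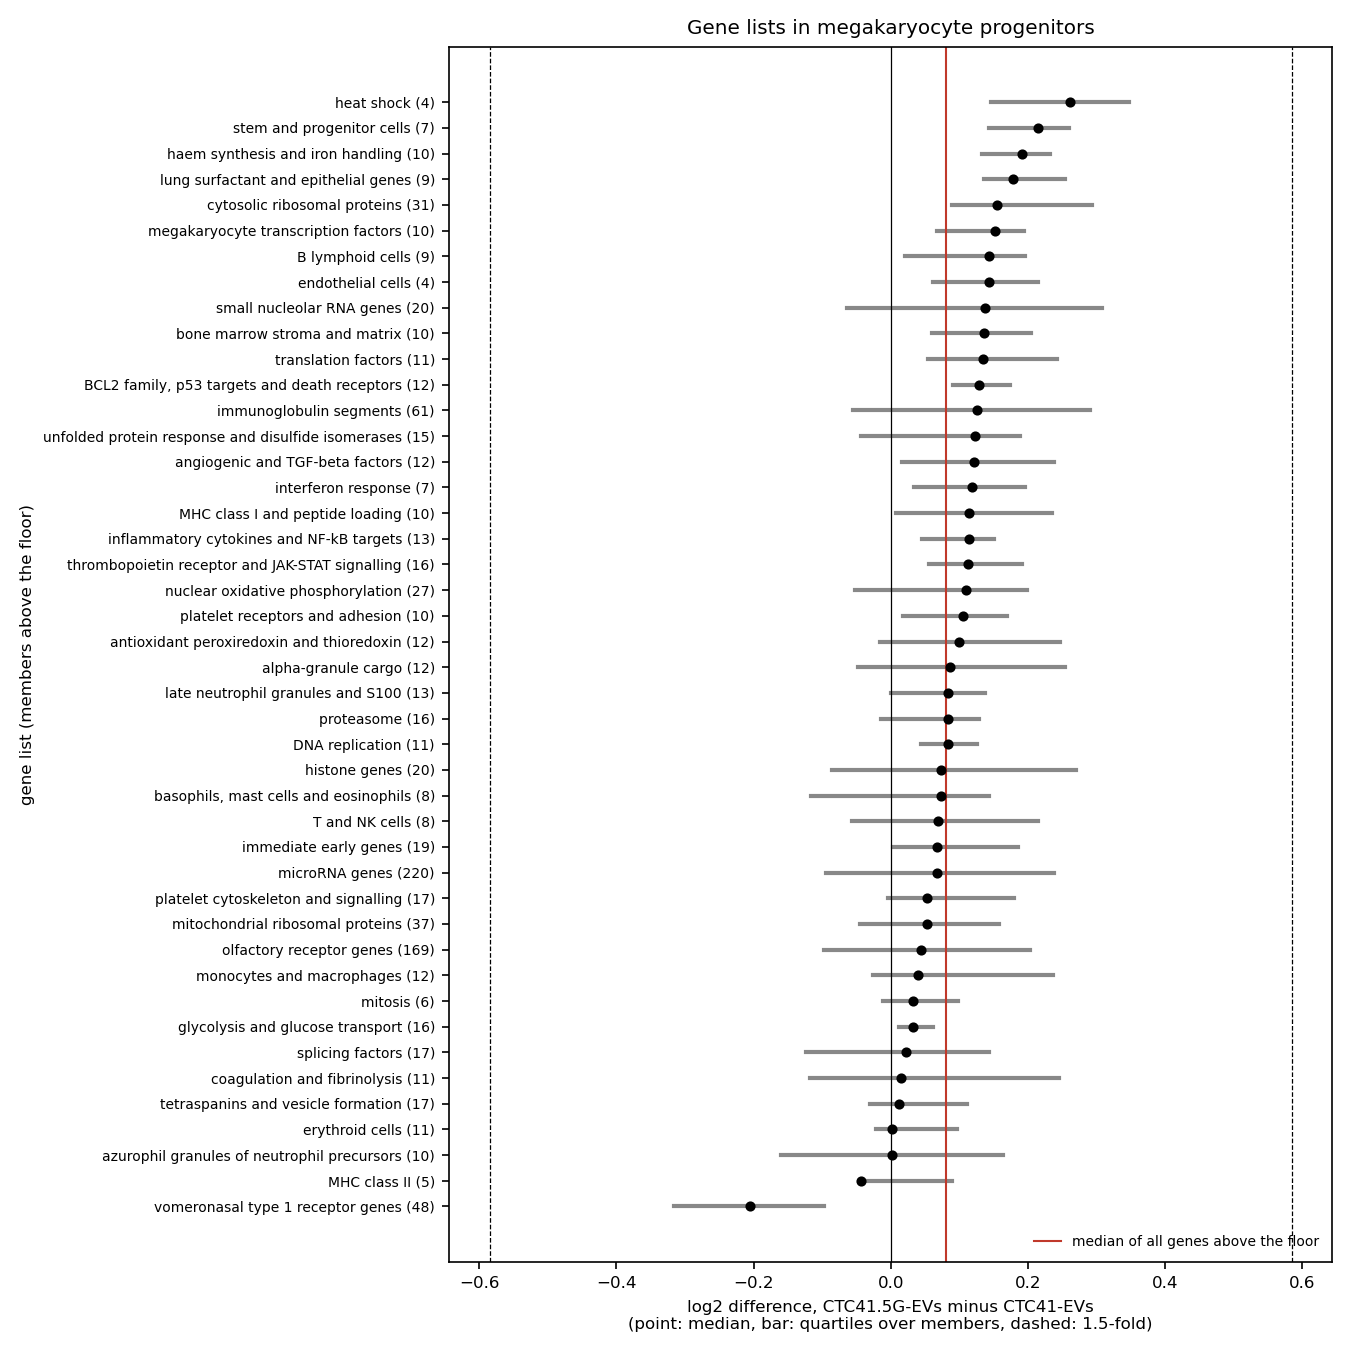
Median log2 difference, CTC41.5G-EVs minus CTC41-EVs, for gene lists with at least 3 members above the floor, with bars from the lower to the upper quartile over members. The red line is the median of all genes at 0.08, no list reaches the dashed lines at 1.5-fold, and the vomeronasal list lies lowest at -0.21.

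MicroRNA genes were the class with the largest upward gap, Mir378c, although 220 of them above the floor gave a median of 0.07, with 140 higher, 80 lower, 6 past 1.5-fold higher (2.73%, against 0.608% of all genes) and 3 lower (1.36%, against 0.783%). Whether a probe for such a gene read the precursor or the mature strand was not tested. MicroRNAs bind target messages mainly through the seed, bases 2 to 8 of the mature strand, and lower their translation and stability. The mature sequences are given for some of the genes with the widest gaps and for microRNAs on the array that share a seed with a called gene, from RefSeq, with the seed in capitals.
mmu-miR-378c: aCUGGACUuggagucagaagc
mmu-miR-3098-5p: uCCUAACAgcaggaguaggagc
mmu-miR-3098-3p: uUCUGCUGccugccuuuagga
mmu-miR-8115: cCGCAAUAgcaacaagggcucu
mmu-miR-764-5p: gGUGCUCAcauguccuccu
mmu-miR-764-3p: aGGAGGCCauaguggcaacugu
mmu-miR-3475-5p: aAAUCAUGuacccccacagagg
mmu-miR-96-3p: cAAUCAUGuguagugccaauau
mmu-miR-3473d: cCACUGAGccacuuuccagcccuu
mmu-miR-1947-3p: gCACUGAGcuagcucucccucc
mmu-miR-674-5p: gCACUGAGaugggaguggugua
In GRCm38.p6, miR-378c lies at chr14:46954905-46954925 on the - strand, miR-3098-5p at chr6:125195807-125195828 and miR-8115 at chr5:122682664-122682685, both on the + strand. Of the 9 called genes 8 had a mature sequence in the table, and their 13 mature strands had 13 distinct seeds, so no seed recurred among them. Mir378c read 6.17 with CTC41.5G-EVs, 5.00 with CTC41-EVs and 6.64 with PBS, and in platelets 4.17, 2.63 and 5.83 in that order. The CTC41-EVs value in progenitors and both vesicle values in platelets were below the floor, so their order there is not measured. Mir3098 read 7.70 with CTC41.5G-EVs, 6.85 with CTC41-EVs and 7.46 with PBS, with a difference of 0.42 when its probes were averaged. Mir3475 differed by 0.81, Mir466d by 0.81, Mir219b by 0.81 and Mir3473d by 0.66. Mir3473d shares its seed with Mir1947, which differed by 0.22, and with Mir674, which differed by 0.13. Mir3475 shares the seed of its 5p strand with Mir96, which differed by -0.01. Lower were Mir8115, at 5.09 with CTC41.5G-EVs, 6.09 with CTC41-EVs and 6.47 with PBS, Mir764, at 5.10, 6.02 and 5.61, and Mir129b, at 5.57, 6.22 and 6.08.

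**Figure D5:**
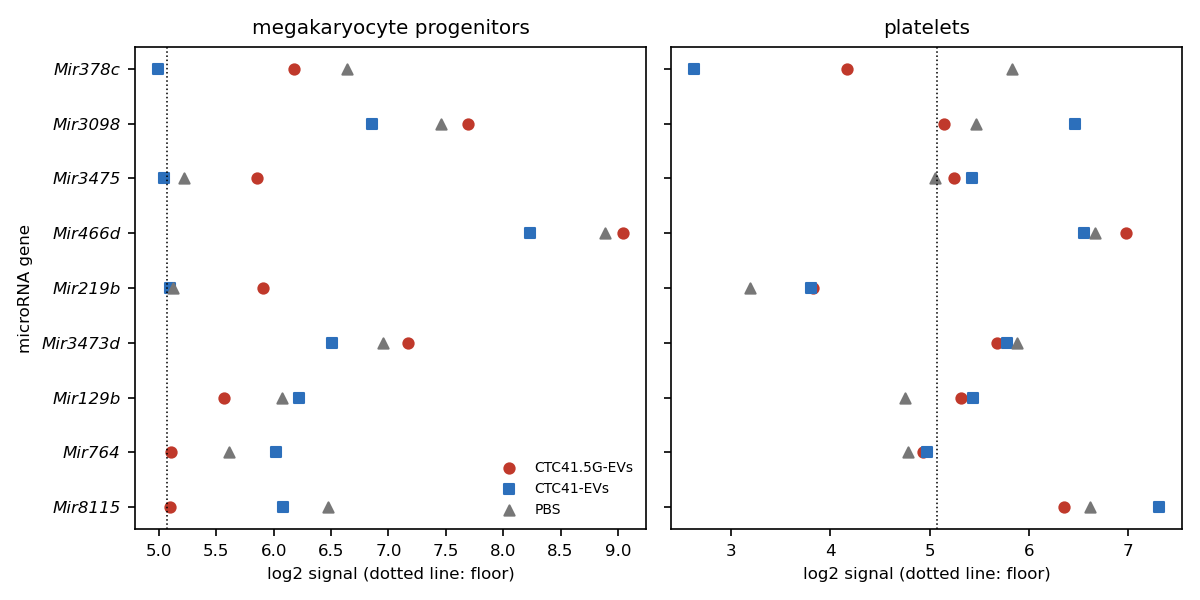
Log2 signal of the 9 microRNA genes past 1.5-fold in progenitors, in progenitors (left) and platelets (right), with CTC41.5G-EVs (circles), CTC41-EVs (squares) and PBS (triangles), 1 array each. Mir378c stands at 6.17 against 5.00 in progenitors and at 4.17 against 2.63 in platelets, while Mir3098 is reversed in platelets.

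Small nuclear RNAs, which form the spliceosome, and small nucleolar RNAs, which guide the modification of other RNAs, were more often lower than higher past the threshold. Of 694 such genes above the floor, 24 were at least 1.5-fold lower with CTC41.5G-EVs (3.46%) and 2 higher (0.288%), against 0.783% and 0.608% of all genes, while their median was 0.01. The 2 higher genes, named after their values were seen, were Gm26178 at 0.71 and Gm22581 at 0.61. Rnu2-10, a U2 snRNA gene, read 6.84 with CTC41.5G-EVs, 7.47 with CTC41-EVs and 6.73 with PBS. Gm23444 and Gm23472 had one set of values between them, 6.90, 7.59 and 6.76, and Gm23971, Gm24497, Gm25939 and Gm26316 differed by -0.70, -0.65, -0.65 and -0.71. In this set the CTC41-EVs array was high and the CTC41.5G-EVs and PBS arrays were close together. Over the 14 lower snRNA genes, with 13 distinct sets of values, PBS lay nearer CTC41.5G-EVs than CTC41-EVs in 11. It did so in 4 of the 10 lower snoRNA genes and in 29 of the 85 lower genes of all kinds. Genes with the same values are not separate observations. Rnu2-10, Gm23444, Gm23472, Gm23971, Gm24497, Gm25939 and Gm26316 also read nearly alike. They lay at 6.74 to 6.90 with CTC41.5G-EVs, 7.40 to 7.59 with CTC41-EVs and 6.58 to 6.80 with PBS. Whether their probes read separate RNAs was not tested, so the counts of 24 and 11 may hold 1 signal several times. Among snoRNA genes, Gm24608 read 5.82 with CTC41.5G-EVs, 7.05 with CTC41-EVs and 6.47 with PBS, and Gm25229 read 4.77, 5.83 and 5.06. Genes typed as ribosomal RNA were higher in 58 of 60 with a median of 0.31, but they held 21 distinct sets of values and none was past 1.5-fold. Rn28s1, the large cytosolic rRNA, read 10.61 with CTC41.5G-EVs, 10.09 with CTC41-EVs and 9.80 with PBS, and mt-Rnr1, the small mitochondrial rRNA, read 12.77, 13.07 and 13.14.

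Vomeronasal type 1 receptors, pheromone receptors of sensory neurons, formed the list lowest with CTC41.5G-EVs among those with at least 3 members above the floor. Of 54 such genes and pseudogenes of chromosome 7 above the floor, 48 were lower and 6 higher, against 31.5% of all genes lower, and 7 were lower past 1.5-fold (12.96%, against 0.783% of all genes) with a median of -0.25. The median of the receptor list stayed below 0 and below that of all genes in every alternative run. The 7 on other chromosomes split 3 higher and 4 lower. Vmn1r157 read 5.21 with CTC41.5G-EVs, 6.01 with CTC41-EVs and 5.79 with PBS. Vmn1r158 and Vmn1r119 read 6.29 and 6.54 with CTC41.5G-EVs, against 6.89 and 7.13 with CTC41-EVs. The pseudogenes Vmn1r-ps71, Vmn1r-ps76, Vmn1r-ps78 and Vmn1r-ps80 differed by -0.73, -0.71, -0.71 and -0.62, and Vmn1r-ps76 and Vmn1r-ps78 had identical values. Near-identical copies of this family can share probe signal, so the count is not one of separate genes. The median against PBS was -0.18 for CTC41.5G-EVs and 0.07 for CTC41-EVs, against 0.13 and 0.04 over all genes. In platelets the 7 named receptors and pseudogenes were below the floor on all 3 arrays. Olfactory receptor genes, which marrow cells largely do not use, had 92 of 169 higher and a median of 0.04. Immunoglobulin heavy D segments, short pieces joined during B cell development, had 3 of 4 higher past 1.5-fold, against 0.608% of all genes, a family picked out after its values were seen. They were Ighd6-2 at 0.63 and Ighd5-7 and Ighd6-1 at 0.61, the last pair with identical values. Predicted genes, by their Gm names, had 22 of 2795 higher (0.787%, near the 0.608% of all genes) and 45 lower (1.61%, against 0.783%). They take in both higher and, but for Rnu2-10, all lower snRNA and snoRNA genes counted above, so these counts overlap.

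The platelet arrays gave the same contrast on separate arrays. There 230 of 8247 genes above the platelet floor were at least 1.5-fold higher with CTC41.5G-EVs (2.79%) and 73 lower (0.885%). Of the 66 genes higher in progenitors, 38 were above the platelet floor and 24 of these were higher there (63.2%), against 57.9% of the 6473 genes above both floors. Of the 85 lower in progenitors, 39 were above the platelet floor and 16 were lower there (41.0%), against 42.1%. Both shares, by sign alone, were close to those of all genes. The number past 1.5-fold in both cell types was 9, and 7 of these had the same direction. In platelets 4 of the 38 were past 1.5-fold higher and 1 lower, and 1 of the 39 was higher and 3 lower. Of the 6473 genes above both floors, 165 were higher in platelets and 49 lower by that much. At 1.5-fold the shares with the same direction were thus larger than those of all genes, but they rest on 4 and 3 genes. Higher in both were Rpl10a-ps1, Rpsa-ps2, Sms-ps and Tssk3, with platelet differences of 0.63, 0.65, 0.60 and 0.77. Lower in both were Mir8115, n-R5s41, a 5S rRNA-like gene typed as a pseudogene, and Gm26310, with platelet differences of -0.95, -0.89 and -0.82. Mir8115 read 6.35 with CTC41.5G-EVs, 7.31 with CTC41-EVs and 6.62 with PBS in platelets. Mir3098 and 4930542N06Rik had opposite directions in the cell types.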

How the data were processed

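The series holds 6 Clariom D Mouse arrays, 1 for each of megakaryocyte progenitors and platelets from mice given CTC41.5G-EVs, CTC41-EVs or PBS. The values are the authors' deposited log2 signals, 1 per probe set. They were made with Affymetrix Expression Console 1.4.1.46, per the submitters' processing notes, and the series text names MAS5.0 as the normalization. No genome build of the files is stated, so none of their coordinates was used. The number of arrays limits the precision. No scanner files were used, so background correction and saturation were not examined.

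Of 72688 probes, 30604 named 1 gene symbol, 2146 several and 39938 none. Symbols were updated through Entrez IDs against RefSeq (GRCm38.p6), with 22818 probes matched, which left 30142 genes, each read from its probe of highest mean. Genes entered when the mean of the 3 progenitor arrays reached the 75th percentile of all probe means. A gene was counted as different at 1.5-fold. With 1 array a group no test was made, and the Wilcoxon test with a false discovery rate that the series text names was not repeated. Counting was tested on simulated data, with changes larger than any gap seen here and genes well above the floor. That test cannot speak for gaps near 1.5-fold or for values near the floor. Named genes were the 15 protein-coding and 5 other genes furthest apart each way, up to 4 members of each list described and the lineage markers. Members, lists and tests were chosen with earlier results of these data known. Python 3.11.15, pandas 2.3.3, numpy 2.4.6, statsmodels 0.14.6 and matplotlib 3.10.9 were used. Alternatives covered scaling, floor, threshold, probe choice and gene set.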

Additional observations from a re-analysis of the deposited data

Results flagged for a closer look

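Mir3098 went opposite ways in the cell types. CTC41.5G-EVs minus CTC41-EVs was 0.84 in progenitors and -1.32 in platelets, where it read 5.15 with CTC41.5G-EVs, 6.47 with CTC41-EVs and 5.47 with PBS. 4930542N06Rik, a long non-coding RNA gene, had a difference of -0.76 in progenitors, with 4.99 for CTC41.5G-EVs against 5.75 for CTC41-EVs, and of 0.60 in platelets, with 6.72 against 6.13. The difference between the cell types was not tested, with 1 array a group.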

How the results depend on the processing

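The counts of 66 higher and 85 lower genes depended on scaling and floor. They were 36 and 120 after quantile normalization of the 3 progenitor arrays, 33 and 137 with the arrays at the same median, 33 and 135 centred on olfactory receptor genes, and 28 and 147 with a loess curve of the difference on the signal subtracted. The median of all genes, 0.0799 as deposited, was 0.0250, 0.0119, 0.0144 and -0.0017 in that order, and 0.0747 to 0.0906 under the floor, probe and gene set alternatives. Counts were 145 and 148 with the floor at the 50th percentile, 30 and 39 at the 90th, 379 and 215 with no floor, 20 and 20 over protein-coding genes alone, and 1 and 5 at 2-fold. They were 72 and 82 with the floor on the 2 arrays compared, and 62 and 85 with a gene's probes averaged. Chosen after seeing the data were 4 further settings: both arrays at or above the floor, with 45 and 62, equal values counted once, with 65 and 82, and all 6 arrays scaled with the floor taken again, to the same median, with 27, 123 and a median of 0.0132, or on olfactory receptor genes, with 21, 105 and 0.0146. Holding the floor in the scalings above was also decided after a first run. The direction of single list members and lineage markers was not followed over the alternatives. The 40 protein-coding and other genes furthest apart were picked for their gaps on these same arrays, so a change of direction was unlikely from the start. The floor at the 90th percentile kept 15 of them, and both arrays at or above the floor kept 21. None of the 40 changed direction, and 32 stayed past 1.5-fold in every alternative that kept them. Under it in at least 1 scaling were Cited2, Olfr281, Tssk3, Fbxo46, 2410141K09Rik and Fthl17d, with 0.54 the lowest value, and with probes averaged 2410141K09Rik at 0.42, Ephb1 at -0.43 and Mir3098 at 0.42. No replicate could be left out. No paired analysis was possible because each group had 1 array and the labels carry no replicate numbers.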

Other observations

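Probes that name no single gene were kept out of every count above. Of 42084 such probes 10393 were above the floor, and of these 391 were at least 1.5-fold higher with CTC41.5G-EVs and 393 lower, with a median of 0.05. Both shares were larger than those of named genes, where 66 of 10858 were higher (0.608%) and 85 lower (0.783%). Most gaps of 1.5-fold between the 2 arrays thus lay in probes kept out of the counts. Xist, the RNA of the inactive X chromosome, was below the floor or within 0.01 of it on each of the 6 arrays. It read 4.24 with CTC41.5G-EVs, 4.60 with CTC41-EVs and 5.08 with PBS in progenitors, and 4.29, 4.69 and 4.88 in platelets. Among genes of the airway and other epithelia, Scgb1a1, a secretory protein of airway club cells, read 6.13 with CTC41.5G-EVs, 5.61 with CTC41-EVs and 5.59 with PBS in progenitors, and Wap, a milk protein, read 6.61, 6.03 and 5.97. That list had 8 of 9 members above the floor higher with CTC41.5G-EVs, with a median of 0.18.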
